A study of Homo sapiens with 48 samples.

Results

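The clade B serpins of chromosome 18 form a run of 10 genes over 543 kb (chr18:63476761-64019779, GRCh38, gene models of GENCODE 29), in the order SERPINB5, SERPINB12, SERPINB13, SERPINB4, SERPINB11, SERPINB3, SERPINB7, SERPINB2, SERPINB10 and SERPINB8. All 10 were taken by family and position from the 35535 genes of the count table, and all are listed there. The run was picked for description because SERPINB2 was higher with CPI-0209 in some cell lines and lower in others, so the changes of SERPINB2 are given as values without a test. The 9 neighbours were taken whole, none being added or dropped for its values. Their adjusted p-values come from the same comparison in the same libraries and were adjusted over all genes tested.

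RNA was sequenced from 8 established human lines of bladder cancer, 639V, HT1197, HT1376, KU1919, SW780, T24, TCCSUP and VMCUB. Each line received CPI-0209, which inhibits the histone methyltransferase EZH2, at 250 nM over 4 days, or DMSO as the vehicle. There were 3 libraries in each of the 16 groups, 48 in all. The culture medium differed between several of the lines, so line and medium cannot be told apart. Whether the replicates came from separate cultures is not in the labels, so p-values measure the spread between these samples only, which may be technical.

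Serpins are protease inhibitors that offer a protease a loop as bait, and most are used up in the reaction, which traps the enzyme. Clade B members lack a classical signal peptide and act largely inside cells, and the chromosome 18 group is known for expression in stratified epithelium and in myeloid cells. SERPINB2 is plasminogen activator inhibitor 2, which inhibits the urokinase-type plasminogen activator PLAU. EZH2 is the catalytic subunit of the Polycomb complex PRC2, which places a repressive mark on histone H3.

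Library totals ranged from 26481418 to 50916911 counts, with a median of 41665645, and mitochondrial genes held 1.75% to 6.18% of them. No pair of replicates agreed within sampling noise, the ratio of chi-square to its degrees of freedom being 2.13 to 125.6. Of 11 epithelial and urothelial marker genes, 5 to 11 reached 1 CPM (counts scaled to library size) in each group. UPK3A, a uroplakin, was at 0 in all 6 libraries of KU1919 and of VMCUB and in the 3 DMSO libraries of 639V. In 639V, 6 of the 11 reached 1 CPM with CPI-0209 and 5 with DMSO. The adhesion gene EPCAM averaged 1.37 CPM with CPI-0209 and 0.936 CPM with DMSO there. E-cadherin (CDH1) averaged 0.743 CPM with CPI-0209 and 0.731 CPM with DMSO. The keratin genes KRT8 (984 CPM with CPI-0209 and 1430 CPM with DMSO) and KRT18 (515 and 622 CPM) were well detected in that line. KRT18 was nevertheless lower in 639V than in any other line. KRT19 averaged 7.98 CPM with CPI-0209 and 5.63 CPM with DMSO in 639V, and KRT5 1.66 and 1.13 CPM. Of the mesenchymal markers VIM, CDH2, ZEB1 and FN1, VIM had its highest level of the 8 lines in 639V (638 and 537 CPM). FN1 was higher in most other lines. Library sizes were scaled by TMM factors over all libraries, and fold changes are on the log2 scale, CPI-0209 over DMSO, ± SE.

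SERPINB2 (ENSG00000197632, chr18:63871692-63903890, + strand) was higher with CPI-0209 in 4 lines and lower in the other 4. It was 5.04-fold higher in HT1376 and 5.48-fold higher in SW780, and 3.13-fold lower in KU1919. In HT1376 the 3 CPI-0209 libraries held 131, 125 and 123 CPM, against 25.3, 25.0 and 26.4 CPM in DMSO libraries, a log2 fold change of 2.33 ± 0.05. In SW780 they held 1.74, 1.64 and 1.24 CPM, against 0.318, 0.193 and 0.324 CPM with DMSO, a change of 2.45 ± 0.25. In HT1197 the values were 5.81, 5.17 and 6.07 CPM with CPI-0209 and 2.40, 2.41 and 2.62 CPM with DMSO, a change of 1.21 ± 0.11. The groups did not overlap in any of these 3 lines. In 639V the gene was near the limit of detection, with 43 counts in the CPI-0209 libraries (0.330, 0.217 and 0.242 CPM) and 8 counts in the DMSO libraries (0.0648, 0.112 and 0 CPM), a change of 2.04 ± 0.56.

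Among the lines with a lower level, KU1919 had 73.2, 68.7 and 60.3 CPM of SERPINB2 with CPI-0209, against 216, 205 and 210 CPM with DMSO, a change of -1.65 ± 0.09. TCCSUP had 21.8, 21.0 and 22.3 CPM with CPI-0209 and 43.2, 43.9 and 44.9 CPM with DMSO, a change of -0.98 ± 0.05. VMCUB had 84.6, 89.2 and 84.4 CPM with CPI-0209 and 143, 147 and 146 CPM with DMSO, a change of -0.70 ± 0.06. The groups were apart in each of these lines. T24 showed the smallest difference, with 8.77, 7.99 and 10.1 CPM with CPI-0209 and 12.2, 13.6 and 12 CPM with DMSO, a change of -0.48 ± 0.11, and its groups were also apart. In the fit shared by the 8 lines, on counts summed over replicates, the change was 0.24 ± 0.52, so opposite responses in single lines left a mean near 0. In bulk RNA, fewer cells with the transcript and less of it per cell cannot be told apart.

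The DMSO level of SERPINB2 differed widely between lines. From the lowest, the means were 0.0590 ± 0.0564 CPM in 639V, 0.278 ± 0.0735 in SW780, 2.48 ± 0.125 in HT1197, 12.6 ± 0.866 in T24, 25.5 ± 0.713 in HT1376, 44.0 ± 0.850 in TCCSUP, 145 ± 2.27 in VMCUB and 210 ± 5.5 in KU1919 (SD, n = 3 each). No adjacent lines in this order overlapped in their libraries. The 3 lines with the lowest DMSO levels were those where CPI-0209 libraries stood higher, together with HT1376, and the 3 with the highest levels were among those where they stood lower, together with T24. The fold change and the DMSO level share the DMSO libraries, so this order is a description only.

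**Figure D1:**
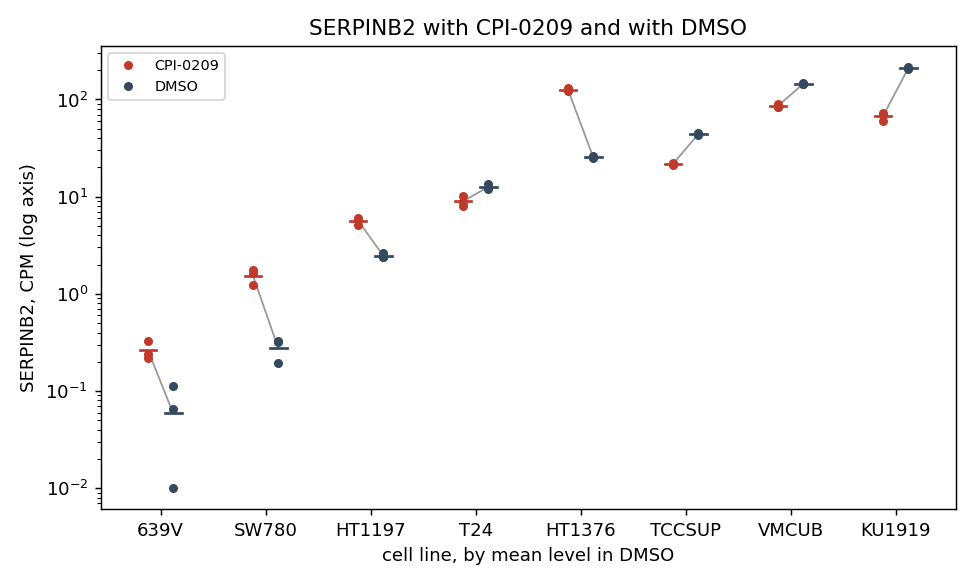
SERPINB2 in CPM (log axis) in the 8 cell lines, ordered by mean level in DMSO. Red points are the 3 CPI-0209 libraries and dark points the 3 DMSO libraries of a line, short bars are means, and 0 is drawn at 0.01. CPI-0209 stood above DMSO in 639V, SW780, HT1197 and HT1376 and below it in T24, TCCSUP, VMCUB and KU1919.

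The promoters of SERPINB2 and of the neighbours called in its direction in at least 2 lines are shown for comparison, as the 250 bases before each RefSeq start (GRCh38.p14). This choice was made after the values were seen. Capitals mark the AP-1 motif TGANTCA and the TATA box TATAAA on either strand, AP-1 being the family of FOS and JUN transcription factors. SERPINB8 was called in that direction in 5 lines, SERPINB5 and SERPINB13 in 3 each, and SERPINB7, SERPINB4 and SERPINB3 in 2 each. The windows are SERPINB2 (chr18:63887455-63887704), SERPINB8 (chr18:63969831-63970080), SERPINB5 (chr18:63476708-63476957), SERPINB13 (chr18:63587093-63587342) and all 3 annotated starts of SERPINB7 (chr18:63752807-63753056, chr18:63775168-63775417 and chr18:63777531-63777780), all on the + strand. Those of SERPINB4 and SERPINB3 stand with that pair.
SERPINB2: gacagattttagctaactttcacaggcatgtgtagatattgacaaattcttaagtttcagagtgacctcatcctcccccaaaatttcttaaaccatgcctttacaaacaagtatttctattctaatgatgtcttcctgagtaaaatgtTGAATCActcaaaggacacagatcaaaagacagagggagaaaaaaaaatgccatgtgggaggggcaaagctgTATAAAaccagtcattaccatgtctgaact
SERPINB8: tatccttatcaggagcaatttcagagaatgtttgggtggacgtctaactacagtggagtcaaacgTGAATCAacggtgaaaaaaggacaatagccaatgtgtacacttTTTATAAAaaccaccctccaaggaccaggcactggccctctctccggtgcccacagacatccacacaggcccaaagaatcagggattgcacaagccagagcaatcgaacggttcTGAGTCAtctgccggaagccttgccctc
SERPINB5: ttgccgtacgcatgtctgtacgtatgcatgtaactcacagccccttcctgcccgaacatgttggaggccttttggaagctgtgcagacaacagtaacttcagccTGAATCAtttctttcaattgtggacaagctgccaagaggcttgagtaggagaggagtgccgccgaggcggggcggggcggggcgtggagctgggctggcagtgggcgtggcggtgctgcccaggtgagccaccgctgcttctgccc
SERPINB13: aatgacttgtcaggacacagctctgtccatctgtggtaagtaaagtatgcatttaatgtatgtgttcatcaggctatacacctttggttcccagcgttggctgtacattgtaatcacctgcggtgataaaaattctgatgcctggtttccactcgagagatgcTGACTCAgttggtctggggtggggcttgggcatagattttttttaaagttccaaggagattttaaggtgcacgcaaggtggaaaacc
SERPINB7 start 1: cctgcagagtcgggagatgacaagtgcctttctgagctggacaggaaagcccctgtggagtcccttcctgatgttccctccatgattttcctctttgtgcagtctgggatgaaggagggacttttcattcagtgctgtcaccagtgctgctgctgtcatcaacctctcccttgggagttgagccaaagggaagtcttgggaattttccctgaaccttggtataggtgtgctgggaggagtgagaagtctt
SERPINB7 start 2: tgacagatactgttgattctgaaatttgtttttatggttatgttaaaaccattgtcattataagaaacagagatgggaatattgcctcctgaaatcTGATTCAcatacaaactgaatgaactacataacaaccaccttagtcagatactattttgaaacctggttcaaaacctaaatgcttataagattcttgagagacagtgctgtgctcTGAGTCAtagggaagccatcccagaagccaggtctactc
SERPINB7 start 3: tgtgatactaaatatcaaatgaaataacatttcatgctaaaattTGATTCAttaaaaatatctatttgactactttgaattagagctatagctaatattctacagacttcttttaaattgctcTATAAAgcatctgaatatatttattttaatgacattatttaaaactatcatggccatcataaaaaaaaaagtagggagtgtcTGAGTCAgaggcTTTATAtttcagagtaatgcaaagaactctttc
SERPINB2 has 1 AP-1 motif, whose first base lies 102 bases before the start, and a TATA box that begins 30 bases before it. In SERPINB8 the TATA box matches both strands in overlapping letters, and its 2 AP-1 motifs begin 185 and 28 bases before the start. The starts of SERPINB7 differ, start 1 having 0 AP-1 motifs and 0 TATA boxes, start 2 having 2 and 0, and start 3 having 2 and 2. SERPINB5 and SERPINB13 have 1 AP-1 motif and 0 TATA boxes each.

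RefSeq promoters were given for 8 of the 10 genes, with 11 starts, and not for SERPINB10 and SERPINB11. The AP-1 motif was in 7 of the 11 windows, and in 6.57% of all 35116 promoter windows of the same length. The TATA box was in 4 of the 11, and in 10.7% of all windows. CpG dinucleotides numbered 0 to 13 in these windows, with a median of 2, against a median of 11 over all promoters. SERPINB2 had 0 CpG and SERPINB5 the most. The 3 clade B serpins of chromosome 6, SERPINB1, SERPINB6 and SERPINB9, had 6 starts with a median of 26 CpG, 0 with the AP-1 motif and 1 with a TATA box. A motif match describes letters in the window and says nothing of binding in these cells.

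Whether neighbours were called in the direction of SERPINB2 differed between the lines, whose fits were not equally sensitive. A gene was called at an adjusted p under 0.05 in edgeR's quasi-likelihood test, and 3 to 7 of the 9 neighbours passed the filter on low counts in any line. In HT1376, where SERPINB2 was higher, SERPINB5, SERPINB13, SERPINB4, SERPINB3 and SERPINB8 rose and SERPINB7 fell, 5 and 1 of 6, where 23.7% of all genes tested were called higher and 16% lower. SERPINB10 was also tested in HT1376 but is left out of that count, since only its CPI-0209 libraries reached the filter. Every other neighbour tested in a line reached it in all 6 libraries. In 639V, SERPINB13, SERPINB4 and SERPINB3 rose and SERPINB5 fell among 6 tested, with 22.1% of all genes higher and 17.1% lower. In SW780 only SERPINB8 rose and SERPINB13 fell among 3 tested, with 30.8% and 30.3% of all genes. In HT1197 SERPINB5 alone of 3 tested rose, with 11.8% of all genes higher and 7.8% lower.

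In the lines where SERPINB2 was lower, the largest falls of neighbours were in KU1919. SERPINB13, SERPINB7 and SERPINB8 fell and 0 rose among 4 tested neighbours in KU1919, where 2.4% of all genes were called lower and 9.3% higher. That low share depended on CPI-0209 replicate 1 of KU1919, whose chi-square ratios to replicates 2 and 3 were 66.38 and 98.3. Without this library 2375 of 16579 genes were called lower and 3047 higher in KU1919, and 4 neighbours were lower. In TCCSUP all 3 tested neighbours fell, SERPINB5, SERPINB7 and SERPINB8, with 23% of all genes lower and 25.7% higher. In VMCUB SERPINB8 fell among 4 tested, with 11% of all genes lower and 16.4% higher. In T24 none of 3 tested neighbours was called lower and SERPINB5 rose, with 0.93% of all genes lower and 9.37% higher. SERPINB7 (-0.44 ± 0.17) and SERPINB8 (-0.17 ± 0.08) were below 0 there but not called. Where SERPINB2 was higher, the median log2 fold change of the neighbours counted above was 0.57 in HT1376, 0.95 in 639V, -0.09 in HT1197 and -0.08 in SW780. Where SERPINB2 was lower, it was -1.10 in KU1919, -0.41 in TCCSUP, -0.17 in T24 and -0.16 in VMCUB. The median of all genes tested lay between -0.012 and 0.041. In HT1197 and SW780 the neighbours' median was thus slightly below 0, against the rise of SERPINB2. Since SERPINB2 was chosen on this comparison and only some neighbours passed the filter, no more is read from these shares.

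**Figure D2:**
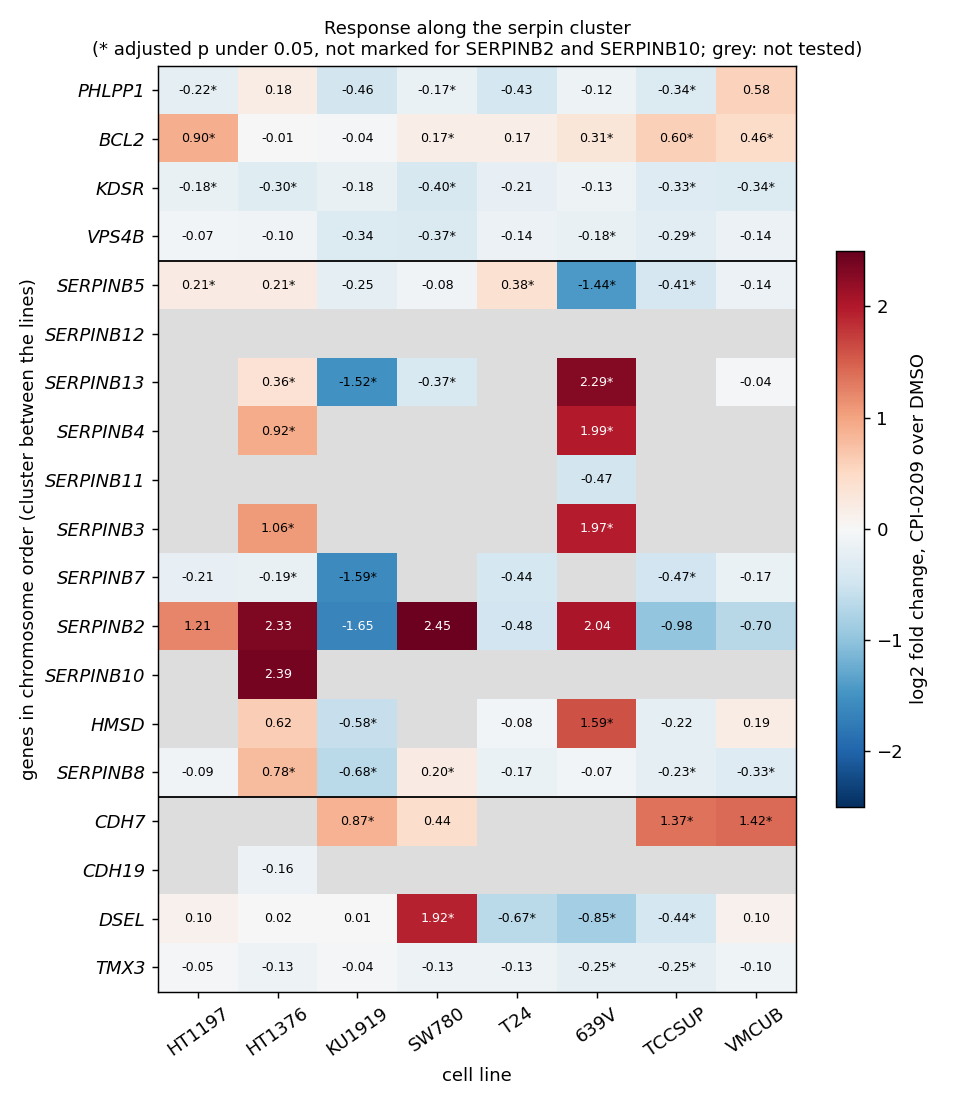
Log2 fold changes, CPI-0209 over DMSO (colour and number), for the cluster genes and 9 protein-coding genes between and beside them, in chromosome order (rows), in the 8 lines (columns). Asterisks mark an adjusted p under 0.05 and are left off SERPINB2 and SERPINB10, and grey cells are genes not tested in a line. KU1919 and TCCSUP are blue for SERPINB7, SERPINB2 and SERPINB8, and HT1376 and 639V are red for SERPINB13, SERPINB4 and SERPINB3.

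SERPINB13, also called headpin, inhibits the cysteine cathepsins L and K. In 639V it had 1.61, 1.68 and 1.45 CPM with CPI-0209, against 0.303, 0.247 and 0.429 CPM with DMSO, a rise of 2.29 ± 0.23 (edgeR adjusted p = 1.98e-06). In KU1919 it had 0.483, 0.538 and 0.358 CPM with CPI-0209 and 1.38, 1.26 and 1.25 CPM with DMSO, a change of -1.52 ± 0.21 (edgeR adjusted p = 0.00385). Its groups were far apart in both lines, in opposite directions. In HT1376, the line with the highest level, it had 31.2, 24.1 and 25.5 CPM with CPI-0209 and 19.7, 21.5 and 23.0 CPM with DMSO, a rise of 0.36 ± 0.10 (edgeR adjusted p = 0.0193). That call was lost without CPI-0209 replicate 1 (change 0.225, adjusted p = 0.0566) or without DMSO replicate 2 (adjusted p = 0.0624), in a range of 0.00767 to 0.105 over all alternatives. In SW780 the libraries overlapped, with 2.13, 2.95 and 2.62 CPM with CPI-0209 and 3.12, 3.79 and 2.91 CPM with DMSO. The change there of -0.37 ± 0.14 (edgeR adjusted p = 0.0281) was not called without DMSO replicate 2 (0.156), CPI-0209 replicate 1 (0.126) or CPI-0209 replicate 3 (0.0536), nor with library totals (-0.17, adjusted p = 0.295, the highest of a range from 0.0119). Library totals moved the median of all genes in SW780 to 0.22. In VMCUB, with 2.98 ± 0.0601 CPM with CPI-0209 and 3.17 ± 0.154 CPM with DMSO (SD, n = 3), the change was -0.04 ± 0.10.

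SERPINB3 and SERPINB4, the squamous cell carcinoma antigens, are neighbouring copies that inhibit cysteine cathepsins and chymotrypsin-like serine proteases. Their longest transcripts shared 1674 of 1749 aligned bases (95.7%), and no 150-base window was identical between them, yet the authors' counting could still split reads between the copies. Their promoters (SERPINB4, chr18:63644257-63644506, and SERPINB3, chr18:63661894-63662143, both - strand) shared 247 of 250 bases, shown here with capitals at the 3 bases that differ.
SERPINB4: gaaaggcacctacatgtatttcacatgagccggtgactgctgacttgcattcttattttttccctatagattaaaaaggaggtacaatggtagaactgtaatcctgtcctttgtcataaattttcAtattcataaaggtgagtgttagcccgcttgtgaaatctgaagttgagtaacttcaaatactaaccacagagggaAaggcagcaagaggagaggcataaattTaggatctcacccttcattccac
SERPINB3: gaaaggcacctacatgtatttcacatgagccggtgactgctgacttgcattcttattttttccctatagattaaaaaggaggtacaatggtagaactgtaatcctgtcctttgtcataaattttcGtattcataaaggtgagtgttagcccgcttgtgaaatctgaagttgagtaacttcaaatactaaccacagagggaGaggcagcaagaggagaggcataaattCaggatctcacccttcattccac
Neither window holds an AP-1 motif or a TATA box as searched.

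In 639V SERPINB4 had 2.19, 2.26 and 2.20 CPM with CPI-0209, against 0.605, 0.494 and 0.563 CPM with DMSO, a rise of 1.99 ± 0.17 (edgeR adjusted p = 4.87e-07). SERPINB3 had 1.65, 1.34 and 1.51 CPM with CPI-0209 and 0.475, 0.314 and 0.349 CPM with DMSO there, a rise of 1.97 ± 0.22 (edgeR adjusted p = 6.66e-06). SERPINB4 was 3.98-fold and SERPINB3 3.91-fold higher, with no overlap between groups. In HT1376 SERPINB4 had 4.44, 4.51 and 3.92 CPM with CPI-0209 and 2.36, 2.31 and 2.25 CPM with DMSO, a rise of 0.92 ± 0.12 (edgeR adjusted p = 0.000202). SERPINB3 had 4.18, 3.41 and 2.80 CPM with CPI-0209 and 2.06, 1.61 and 1.43 CPM with DMSO, a rise of 1.06 ± 0.20 (edgeR adjusted p = 0.00215). SERPINB3 supplied 41.7% to 48.5% of the pair's counts in CPI-0209 libraries of HT1376 and 38.8% to 46.6% in its DMSO libraries, without correction for length. In 639V the shares were 37.2% to 43.0% with CPI-0209 and 38.2% to 44.0% with DMSO. The shares of both treatments overlapped in each line, so no change in the balance of the copies was detectable at this depth. The 95% exact (Clopper-Pearson) intervals of single libraries reached from 30.5% to 54.2% in HT1376 and from 22.2% to 58.7% in 639V, and cover counting error only.

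**Figure D3:**
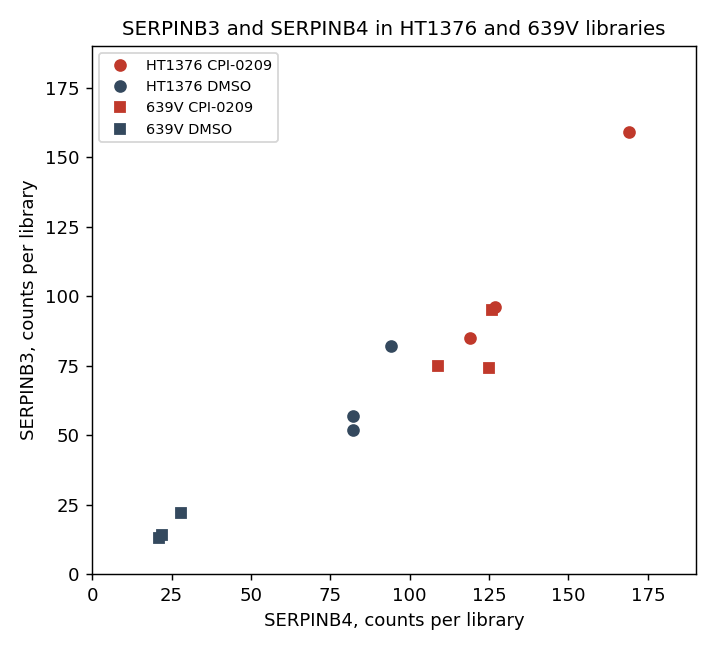
Counts of SERPINB3 (vertical) against SERPINB4 (horizontal) per library in HT1376 (circles) and 639V (squares), with CPI-0209 in red and DMSO in dark. In 639V the CPI-0209 libraries hold 74 to 95 counts of SERPINB3 and the DMSO libraries 13 to 22, and both copies are higher together.

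With the counts of both copies added, chosen as an alternative because reads could be split, the pair was tested in 2 more lines, where SERPINB2 was lower. It reached the filter mainly through the CPI-0209 libraries there, 3 with CPI-0209 and 1 with DMSO in TCCSUP and 3 with CPI-0209 and 0 with DMSO in VMCUB, so its differences are given without a test. In TCCSUP the pair had 28, 14 and 18 counts with CPI-0209 and 3, 8 and 14 counts with DMSO, a change of 1.15 ± 0.40. In VMCUB it had 14, 18 and 14 counts with CPI-0209 and 0, 6 and 2 counts with DMSO, a change of 2.39 ± 0.66. In counts the groups touched at 14 in TCCSUP and were apart in VMCUB, at low depth in both lines. Summed over the 3 libraries the pair had 13 counts with CPI-0209 and 7 with DMSO in KU1919, 15 with CPI-0209 and 7 with DMSO in SW780, and 15 with CPI-0209 and 3 with DMSO in T24, and 0 in all 6 libraries of HT1197. Its sum was higher with CPI-0209 in each of the 7 lines with a count, and so was its mean CPM.

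In the fit shared by the 8 lines, SERPINB4 rose by 1.70 ± 0.35 (edgeR adjusted p = 0.0258), SERPINB3 by 1.28 ± 0.30 (adjusted p = 0.0319) and the added pair by 1.44 ± 0.24 (adjusted p = 0.015). These were the calls among the 8 neighbours tested in that fit, 2 higher and 0 lower, where 7.06% of all genes were higher and 4.22% lower. SERPINB4 lost its call without T24 (adjusted p = 0.0585), 639V (0.0719) or TCCSUP (0.0564), in a range of 0.00228 to 0.0719. SERPINB3 lost it without HT1376 (0.0618), T24 (0.055), 639V (0.0862), TCCSUP (0.0563), VMCUB (0.0701) or replicate 2 of every group (0.0633), in a range of 0.00508 to 0.0862.

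SERPINB8, which inhibits the proprotein convertase furin, was detected in all 48 libraries, at 6.33 to 52.1 CPM. In HT1376 it had 26.6, 25.5 and 23.8 CPM with CPI-0209, against 14.2, 15.0 and 15.8 CPM with DMSO, a rise of 0.78 ± 0.07 (edgeR adjusted p = 1.82e-05). In KU1919 it had 11.2, 12.1 and 12.2 CPM with CPI-0209 and 19.4, 17.4 and 19.9 CPM with DMSO, a change of -0.68 ± 0.10 (edgeR adjusted p = 0.00482). Both groups were well apart in each line. The other calls were smaller. It rose by 0.20 ± 0.06 in SW780 (edgeR adjusted p = 0.00868), where library totals gave 0.40, and changed by -0.23 ± 0.06 in TCCSUP (edgeR adjusted p = 0.00678). In VMCUB it had 10, 11 and 12.4 CPM with CPI-0209 and 15.3, 14.5 and 13.8 CPM with DMSO, a change of -0.33 ± 0.10 (edgeR adjusted p = 0.0466). That call was lost without DMSO replicate 1 (0.147), CPI-0209 replicate 1 (0.159) or CPI-0209 replicate 2 (0.15) and with library totals (0.0988), in a range of 0.000154 to 0.159. In HT1197, T24 and 639V its changes were -0.09 ± 0.10, -0.17 ± 0.08 and -0.07 ± 0.08. All 5 of its calls were in the direction of SERPINB2 in the same line. Of its 3328 transcript windows of 150 bases, 6.7% also occur in HMSD, an overlapping gene on the same strand, and reads there are uncertain.

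SERPINB7, also called megsin, lies next to SERPINB2. In KU1919 it had 7.38, 6.49 and 5.56 CPM with CPI-0209, against 21.0, 18.5 and 18.8 CPM with DMSO, a change of -1.59 ± 0.11 (edgeR adjusted p = 0.000259). In TCCSUP, the line with its highest DMSO level, it had 22.5, 18.7 and 19.8 CPM with CPI-0209 and 27.6, 30.9 and 28.8 CPM with DMSO, a change of -0.47 ± 0.07 (edgeR adjusted p = 0.000113). The groups were apart in both lines, and SERPINB2 changed in the same direction by -1.65 ± 0.09 and -0.98 ± 0.05. In HT1376, where SERPINB2 was higher, SERPINB7 was lower, with 20.0, 21.3 and 21.6 CPM with CPI-0209 and 24.3, 23.6 and 25.1 CPM with DMSO, a change of -0.19 ± 0.06 (edgeR adjusted p = 0.028). This call was lost without any 1 of the CPI-0209 libraries (0.0835 without replicate 1, 0.0571 without replicate 2 and 0.0529 without replicate 3) or without DMSO replicate 3 (0.0646), and with DESeq2 (0.0597), in a range of 0.0205 to 0.0905. Changes that were not called were -0.21 ± 0.09 in HT1197, -0.44 ± 0.17 in T24 and -0.17 ± 0.28 in VMCUB. In SW780 and 639V it had 24 and 16 counts with CPI-0209 and 13 and 6 with DMSO, too few to test.

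SERPINB5, or maspin, belongs to the family by sequence but is not known to inhibit proteases, and it is a marker of epithelial cells. Its changes went against those of SERPINB2 in 2 lines. In 639V, where its level was lowest, it had 0.226, 0.308 and 0.242 CPM with CPI-0209, against 0.713, 0.629 and 0.778 CPM with DMSO, a change of -1.44 ± 0.26 (edgeR adjusted p = 0.000526). In T24 it had 40.3, 40.3 and 44.9 CPM with CPI-0209 and 31.7, 35.7 and 29.7 CPM with DMSO, a rise of 0.38 ± 0.09 (edgeR adjusted p = 0.0355). The T24 call was lost without any 1 library other than DMSO replicate 2, with adjusted p of 0.139 without DMSO replicate 1, 0.207 without DMSO replicate 3, and 0.12, 0.129 and 0.0508 without CPI-0209 replicates 1, 2 and 3, in a range of 1.83e-05 to 0.212. In TCCSUP it had 39.0, 34.0 and 36.9 CPM with CPI-0209 and 48, 50.3 and 51.6 CPM with DMSO, a change of -0.41 ± 0.06 (edgeR adjusted p = 6.46e-05). Its groups did not overlap in any of these 3 lines.

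SERPINB5 also rose slightly in the other 2 lines where it was called. In HT1197 it had 78.2, 77.5 and 76.2 CPM with CPI-0209 and 68.1, 68.9 and 65.9 CPM with DMSO, a rise of 0.21 ± 0.04 (edgeR adjusted p = 0.000514). In HT1376 it had 107, 101 and 99.5 CPM with CPI-0209 and 87.5, 88.9 and 94.6 CPM with DMSO, a rise of 0.21 ± 0.05 (edgeR adjusted p = 0.0134), which was lost without DMSO replicate 2 (0.0797) or CPI-0209 replicate 1 (0.069), in a range of 0.00929 to 0.0797. The values not called were -0.25 ± 0.08 in KU1919 (edgeR adjusted p = 0.0837), -0.08 ± 0.04 in SW780 and -0.14 ± 0.06 in VMCUB.

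**Figure D4:**
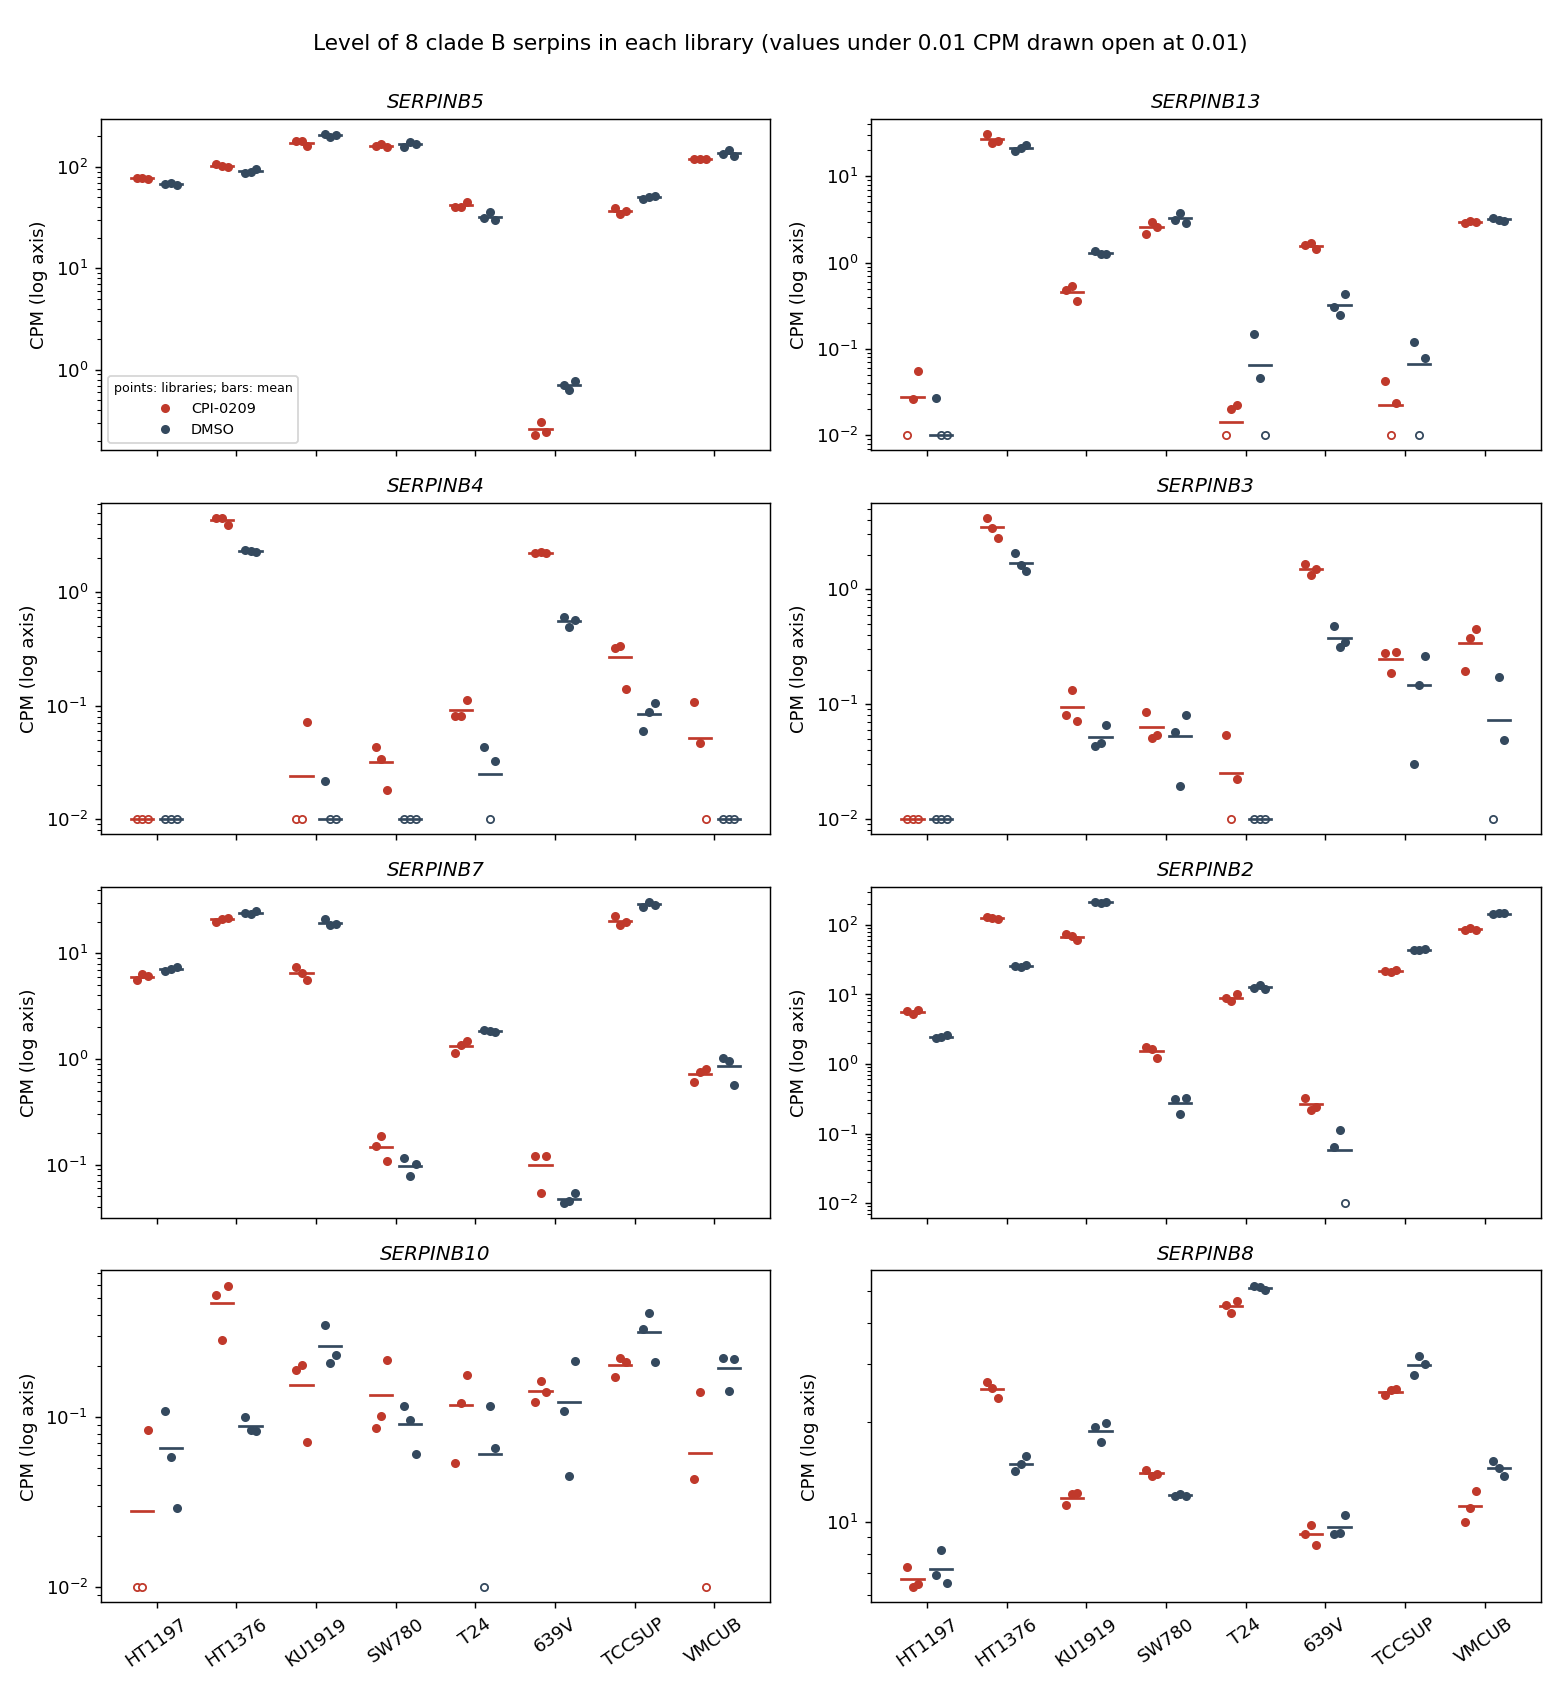
CPM (log axis) of SERPINB5, SERPINB13, SERPINB4, SERPINB3, SERPINB7, SERPINB2, SERPINB10 and SERPINB8 in every library, by line. Red points are CPI-0209 and dark points DMSO libraries, short bars are means, and open points are values under 0.01 CPM, drawn at 0.01. SERPINB2, SERPINB7, SERPINB13 and SERPINB8 are lower with CPI-0209 in KU1919, and SERPINB4 and SERPINB3 are higher with it in HT1376 and 639V.

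The other 3 genes were barely detected. SERPINB10, or bomapin, is known from myeloid cells, overlaps SERPINB2 on the same strand by 6717 bases, and had 294 counts over the 48 libraries. It passed the filter in HT1376 alone, with 20, 8 and 18 counts with CPI-0209, against 4, 3 and 3 counts with DMSO, a change of 2.39 ± 0.42, and is given without a test because the CPI-0209 libraries alone carried it past the filter. SERPINB2 had a change of 2.33 ± 0.05 there. Of the 150-base windows in the longest transcript of SERPINB2, 400 of 2006 (19.9%) are also found in transcripts of SERPINB10. Of those in the longest transcript of SERPINB10, 0 of 1973 are found in transcripts of another gene. How many reads the 2 genes share was not measured. SERPINB11 had 46 counts with CPI-0209 and 50 with DMSO in 639V, a change of -0.47 ± 0.32, and at most 3 counts in any other group. SERPINB12, an inhibitor of trypsin-like proteases, had 31 counts over 18 libraries and was tested in no line.

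Since SERPINB2 and SERPINB10 are also myeloid genes, 9 leukocyte markers were set beside them. Their summed level did not go one way with SERPINB2. Of the lines where SERPINB2 was higher, 639V had 6.34 to 6.89 CPM of these markers with CPI-0209 and 13.1 to 14.2 CPM with DMSO, SW780 9.22 to 10.2 CPM with CPI-0209 and 12.9 to 14.2 CPM with DMSO, and HT1197 28.2 to 30.8 CPM with CPI-0209 and 28.9 to 32.9 CPM with DMSO. Of the lines where it was lower, KU1919 had 73.6 to 80.8 CPM with CPI-0209 and 102 to 106 CPM with DMSO, TCCSUP 56.6 to 59.1 CPM with CPI-0209 and 77.5 to 97.5 CPM with DMSO, T24 11.3 to 13.2 CPM with CPI-0209 and 12.7 to 16.2 CPM with DMSO, and VMCUB 22.3 to 22.9 CPM with CPI-0209 and 16.2 to 24.3 CPM with DMSO. Thus the sum was lower with CPI-0209 in 639V, SW780, KU1919 and TCCSUP, and the groups overlapped in HT1197, T24 and VMCUB. In HT1376 it was 29.7 to 37.7 CPM with CPI-0209 and 14.5 to 15.1 CPM with DMSO, higher as SERPINB2 was, and 4 of 9 genes with CPI-0209 and 3 of 9 with DMSO reached 1 CPM. ITGAM, an integrin of myeloid cells, made up most of the difference, at 21.5 CPM with CPI-0209 and 3.71 CPM with DMSO. CD14 averaged 2.39 CPM with CPI-0209 and 5.94 CPM with DMSO, the pan-leukocyte gene PTPRC 0.516 CPM with CPI-0209 and 0.404 CPM with DMSO, and the lysozyme gene LYZ was at 0 in both groups. Elsewhere a single gene could also make up most of the sum. CD68 averaged 75.1 CPM with CPI-0209 and 102 CPM with DMSO in KU1919, and CSF1R 23.3 and 25.8 CPM in HT1197. In TCCSUP PTPRC averaged 21.5 CPM with CPI-0209 and 28.1 CPM with DMSO, CD14 17.6 and 33.7 CPM, and CD68 17.7 and 27 CPM. The part of these markers in the serpin values was not tested.

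Where members were too low to test, only their counts can be given. VMCUB had 7 counts of SERPINB4 with CPI-0209 and 0 with DMSO, at least 2.1-fold higher when the empty group is set to a floor of 3 counts. SW780 had 5 counts with CPI-0209 and 0 with DMSO, at least 1.4-fold higher by the same floor. T24 had 12 with CPI-0209 and 3 with DMSO, a ratio of 3.66 (95% counting interval 0.987 to 20.2). For SERPINB13 in T24 the counts were 2 with CPI-0209 and 9 with DMSO, a ratio of 0.203 (0.0214 to 0.982). SERPINB12 had 7 counts with CPI-0209 and 2 with DMSO in HT1376, a ratio of 4.05 (0.771 to 40).

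The differences between lines were tested directly with an F test of the 7 line-by-treatment terms on all 48 libraries. Of the 8 neighbours tested, 5 differed between lines, SERPINB8 (edgeR adjusted p = 1.06e-12), SERPINB5 (8.76e-12), SERPINB7 (3.25e-10), SERPINB13 (2.02e-09) and SERPINB10 (0.00367), where 58.7% of all 19790 genes tested did. The count of 5 among 8 is near that share. SERPINB10 no longer differed without replicate 1 of every group (adjusted p = 0.18, in a range of 0.00367 to 0.18). Its highest change was in HT1376, where only CPI-0209 libraries reached that line's filter, so little is read from its difference. SERPINB4 (adjusted p = 0.0669), SERPINB3 (0.201) and SERPINB11 (0.634) did not pass, which does not show that their responses were alike.

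Among 9 protein-coding genes between and beside the members, 2 of 8 tested were higher and 5 lower in TCCSUP (25.7% and 23% of all genes), 1 and 1 of 8 in KU1919 (9.3% and 2.4%), 0 and 1 of 8 in HT1376 (23.7% and 16%) and 2 and 3 of 7 in 639V (22.1% and 17.1%). In the other lines the counts were 2 and 3 of 7 in SW780 (30.8% and 30.3%), 1 and 2 of 6 in HT1197 (11.8% and 7.8%), 0 and 1 of 7 in T24 (9.37% and 0.93%) and 2 and 1 of 8 in VMCUB (16.4% and 11%). HMSD, which lies between SERPINB10 and SERPINB8, had 3.41, 2.59 and 2.7 CPM with CPI-0209 and 4.43, 4.44 and 4.06 CPM with DMSO in KU1919, a change of -0.58 ± 0.13 (edgeR adjusted p = 0.0251). In 639V it rose by 1.59 ± 0.29 (edgeR adjusted p = 0.000594), also in the direction of SERPINB2. On the SERPINB5 side, VPS4B ends 54.28 kb and KDSR 109.3 kb before the cluster. KDSR was called lower in 5 lines and VPS4B in 3, with shared changes of -0.29 ± 0.05 (edgeR adjusted p = 0.0143) and -0.23 ± 0.04 (0.0168), whether SERPINB2 was higher or lower. BCL2, the inhibitor of apoptosis 156.6 kb away, was called higher in 5 lines. SERPINB2 was higher in HT1197 (BCL2 change 0.90 ± 0.24), 639V (0.31 ± 0.07) and SW780 (0.17 ± 0.07). It was lower in TCCSUP (BCL2 change 0.60 ± 0.10) and VMCUB (0.46 ± 0.10). On the other side, CDH7, the nearest gene at 1730 kb, was tested in KU1919, TCCSUP, VMCUB and SW780 only. It rose by 0.87 ± 0.14 in KU1919, 1.37 ± 0.21 in TCCSUP and 1.42 ± 0.18 in VMCUB, all lines with lower SERPINB2. In SW780, where SERPINB2 was higher, the CDH7 change of 0.44 ± 0.34 was not called.

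The 3 clade B serpins of chromosome 6 changed in the direction of SERPINB2 in some lines. In 639V all 3 rose, SERPINB9, an inhibitor of granzyme B, by 1.05 ± 0.12 (edgeR adjusted p = 5.81e-06), SERPINB1, an inhibitor of neutrophil elastase, by 0.58 ± 0.06 and SERPINB6 by 0.30 ± 0.04. In TCCSUP all 3 were lower, SERPINB6 by a change of -0.97 ± 0.05 (edgeR adjusted p = 8.65e-09). Of all genes tested, 22.1% were called higher in 639V and 23% lower in TCCSUP. In KU1919 none of the 2 tested was called, where 9.3% of all genes were called higher and 2.4% lower. In HT1376 SERPINB9 alone rose, by 1.92 ± 0.34 (edgeR adjusted p = 0.00166), where 23.7% of all genes were higher. Their other calls went against SERPINB2, a rise of SERPINB9 in VMCUB by 0.89 ± 0.17 (edgeR adjusted p = 0.0107) and a change of SERPINB6 in SW780 of -0.28 ± 0.04 (edgeR adjusted p = 2.1e-05). Of all genes, 16.4% were higher in VMCUB and 30.3% lower in SW780. None of the 3 was called in HT1197 (11.8% of all genes higher and 7.8% lower) or T24 (9.37% and 0.93%). Whether their responses differ from those of the chromosome 18 genes was not tested.

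Over the 8 lines, the log2 fold changes of SERPINB8 had a Pearson correlation of 0.832 with those of SERPINB2, those of SERPINB7 one of 0.788 and those of SERPINB13 one of 0.683. Among 16760 genes compared they ranked 90, 164 and 555, and the median gene stood at 0.032. SERPINB5 stood at -0.110 and HMSD at 0.177. The points are the 8 lines, and the genes share the libraries. SERPINB8 and SERPINB5 were tested in all 8 lines, but SERPINB7 in 6 and SERPINB13 in 5, so their correlations also rest on lines with few counts, such as 639V for SERPINB7 and T24 for SERPINB13. In HT1376 and HT1197 the fold change of SERPINB7 was below 0 and that of SERPINB2 above 0. SERPINB4 (-0.076) and SERPINB3 (-0.278) were tested in 2 lines only, so nothing is read from their values. The 5 genes with the most similar pattern were the transcription factor gene GATA6 (0.975), also on chromosome 18, the kinase gene NEK11 (0.955), CDV3 (0.955), RBM24, which encodes an RNA-binding protein (0.954), and the Wnt signalling gene DVL1 (0.95). GATA6 averaged 6.28 CPM with CPI-0209 and 2.96 CPM with DMSO in SW780, and 44.7 CPM with CPI-0209 and 63.0 CPM with DMSO in KU1919. The changes of CDV3 ran from -0.28 to -0.02, so a high correlation here describes shape and not size.

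By DMSO level over the 8 lines, SERPINB7 had a correlation with SERPINB2 of 0.709, SERPINB5 of 0.611 and SERPINB8 of 0.473, with a median of 0.022 over 16749 genes. The 5 genes most like SERPINB2 in level were ENSG00000215869 (0.955), PLCXD2 (0.952), NT5E, which encodes the ectonucleotidase CD73 (0.946), TM4SF19 (0.945) and the pseudogene PRPS1P2 (0.944). In KU1919 DMSO libraries SERPINB2 stood at 76.4 CPM per kb of exon, SERPINB5 at 52.3 and SERPINB7 at 7.36.

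The protease that SERPINB2 inhibits also changed. PLAU was called in all 8 lines, higher in 7 and lower in KU1919 (-0.32 ± 0.07, edgeR adjusted p = 0.0288), and its largest rise was in 639V (1.29 ± 0.22, edgeR adjusted p = 0.000349). Its calls in T24 (edgeR adjusted p = 0.0488) and VMCUB (0.0451) lay near the threshold. In the shared fit PLAU was not called (0.39 ± 0.14, edgeR adjusted p = 0.0891). The urokinase receptor gene PLAUR rose by 1.83 ± 0.08 in HT1376 (edgeR adjusted p = 1.51e-07) and by 0.79 ± 0.07 in SW780. PLAUR also rose in 639V (0.50 ± 0.08) and in TCCSUP (0.57 ± 0.05), where SERPINB2 was lower. In HT1197, where SERPINB2 was higher, PLAUR was lower (-0.22 ± 0.04). Among 10 genes of plasminogen activation, all tested in each line, 6 were higher and 1 lower in 639V (22.1% and 17.1% of all genes), 5 and 1 in TCCSUP (25.7% and 23%), 4 and 5 in SW780 (30.8% and 30.3%) and 3 and 4 in VMCUB (16.4% and 11%). In HT1376 the counts were 3 and 2 (23.7% and 16%), in HT1197 2 and 1 (11.8% and 7.8%), in T24 2 and 0 (9.37% and 0.93%) and in KU1919 1 and 2 (9.3% and 2.4%). In HT1376 these counts are near the share over all genes. SERPINE2, another plasminogen activator inhibitor, was higher in all 8 lines, with a shared rise of 1.09 ± 0.25 (edgeR adjusted p = 0.03).

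Among 16 proteases that clade B serpins are known or thought to meet, 9 of 12 tested rose and 0 fell in HT1376 (23.7% and 16% of all genes), 7 and 2 of 11 in SW780 (30.8% and 30.3%), 6 and 3 of 11 in TCCSUP (25.7% and 23%) and 4 and 0 of 8 in 639V (22.1% and 17.1%). The counts were 3 and 1 of 12 in KU1919 (9.3% and 2.4%), 3 and 1 of 10 in HT1197 (11.8% and 7.8%), 3 and 0 of 10 in T24 (9.37% and 0.93%) and 2 and 0 of 9 in VMCUB (16.4% and 11%). In the shared fit 2 of 14 tested rose and 0 fell, where 7.06% of all genes were higher and 4.22% lower, with a median of 0.39 against 0.009 over all genes. CTSV, a cathepsin related to cathepsin L, rose in 6 lines, by up to 1.91 ± 0.12 in TCCSUP (edgeR adjusted p = 3.94e-08). In the shared fit CTSV was not called (0.68 ± 0.20, edgeR adjusted p = 0.0543). The transmembrane serine protease gene TMPRSS2 rose in 5 lines and in the shared fit (1.55 ± 0.36, edgeR adjusted p = 0.0311). KLK7, a chymotrypsin-like kallikrein of the epidermis, rose by 1.67 ± 0.07 in HT1376, 1.73 ± 0.19 in KU1919 and 1.45 ± 0.30 in SW780. It was not called in HT1197, and in the shared fit KLK7 rose by 1.03 ± 0.27 (edgeR adjusted p = 0.0409). KLK5, its trypsin-like partner, had a change of 5.48 ± 0.42 in TCCSUP. For genes outside the cluster it was not checked which treatment's libraries carried them past the filter. So large a change is therefore given without a test, though the counts above include KLK5. FURIN, the target of SERPINB8, rose by 0.29 ± 0.05 in HT1376 and 0.22 ± 0.05 in SW780 and changed by -0.20 ± 0.03 in HT1197 and -0.16 ± 0.06 in TCCSUP.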

How the data were processed

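Trizol RNA of 8 bladder cancer lines was sequenced as paired-end reads, per the labels' protocols, which mention both a TruSeq kit and stranded libraries. Strand use in counting, the annotation, and how estimated counts became whole numbers are not given in the sources used here. Overlapping genes (SERPINB2 and SERPINB10, SERPINB8 and HMSD, SERPINB11 and SERPINB3) are therefore uncertain. The authors deposited whole-number counts per Ensembl gene, made with STAR 2.7.3a and RSEM 1.3.1 on hg38, per the submitters' processing notes. The table had 35535 genes, 3756 of them at 0 everywhere, and 0 rows without a gene. A gene name table gave the symbols and GENCODE 29 the coordinates. Promoters and CpG counts came from RefSeq (GRCh38.p14), where 8 of 10 members matched.

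Each line was tested on its 6 libraries with edgeR 4.0.16 (R 4.3.3), filterByExpr (10 counts at the median library size, in 3 of 6 libraries), TMM scaling, the robust quasi-likelihood test and Benjamini-Hochberg adjustment over all genes tested, to a threshold of 0.05. The shared fit used counts summed over replicates, 16 sums, with terms for line and treatment. All 48 libraries entered the test of differences between lines, which had 7 interaction terms. SE is the absolute log2 fold change over the square root of F. Fold bounds against 0 counts used a floor of 3 counts over the group. Correlations over lines used fold changes from the fit of 48 libraries, or log2 of the mean DMSO CPM plus 0.1, for genes with at least 1 CPM in some group. Identity of SERPINB3 and SERPINB4 was aligned with Biopython 1.88. Each fit was tested on simulated data.

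The members, lists, tests and the rule for named genes were chosen with earlier results of these data known. The rule took all 10 members, the chromosome 6 clade B serpins, the nearest 4 protein-coding genes on each side and any between, called genes of the plasminogen and protease lists, and the 5 genes most like SERPINB2 on each measure. Values of a gene of these lists, and the protein sequences that the rule also took, are not reported here. Groups came from the labels, with 3 libraries each. Replicate numbers were shared between treatments, but same-numbered libraries deviated together in 0 of 8 lines, so they were not taken as pairs. Alternatives were RLE size factors, library totals, DESeq2 1.42.0, no filter, a fit of 48 libraries, SERPINB3 and SERPINB4 added, a replicate block, and leaving out each library or line.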

Additional observations from a re-analysis of the deposited data

Results flagged for a closer look

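The response to CPI-0209 differed between the 8 lines for 5 of the 8 neighbours of SERPINB2 tested. The test was edgeR's F test of line-by-treatment terms with all 48 libraries. Of all genes tested, 58.7% differed, so this count is near the share over all genes. SERPINB8 (adjusted p = 1.06e-12) ran from -0.67 in KU1919 to 0.75 in HT1376 in that fit. SERPINB5 (adjusted p = 8.76e-12) ran from -1.43 in 639V to 0.37 in T24. SERPINB7 (adjusted p = 3.25e-10) ran from -1.59 in KU1919 to 1.02 in 639V, where it had 16 counts with CPI-0209 and 6 with DMSO. SERPINB13 (adjusted p = 2.02e-09) ran from -2.08 in T24, with 2 counts with CPI-0209 and 9 with DMSO, to 2.29 in 639V. SERPINB10 (adjusted p = 0.00367) ran from -1.52 in VMCUB, with 8 counts with CPI-0209 and 21 with DMSO, to 2.36 in HT1376. In HT1376 only its CPI-0209 libraries reached that line's filter, so little is read from its difference. SERPINB10 no longer differed without replicate 1 of every group (adjusted p = 0.18).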

How the results depend on the processing

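Of 23 calls of neighbours in single lines and the shared fit, 14 were kept under every alternative run, among them all calls in KU1919, 639V and TCCSUP, and 0 turned round. The 9 with a call lost were SERPINB5 in HT1197, HT1376 and T24, SERPINB13 in HT1376 and SW780, SERPINB7 in HT1376, SERPINB8 in VMCUB, and SERPINB3 and SERPINB4 in the shared fit. SERPINB5 in HT1197 was lost in the fit of 48 libraries alone (adjusted p = 0.0569, in a range from 1.05e-05).

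Counts here are of neighbours, without SERPINB2 and, in HT1376, without SERPINB10. In the fit of 48 libraries 0 rather than 1 neighbour was higher in HT1197. In HT1376 the count higher was 5, and 3 with the replicate block and 3 to 5 without 1 library, the lowest being without DMSO replicate 2 or CPI-0209 replicate 1. The count lower there was 1, and 0 with DESeq2, the replicate block or the fit of 48 libraries, and 0 to 1 without 1 library. In SW780 the count higher was 1, and 2 with library totals or the fit of 48 libraries. The count lower there was 1, and 0 with library totals, DESeq2 or the fit of 48 libraries, and 0 to 2 without 1 library. In T24 the count higher was 1, and 0 with RLE size factors, no filter or the replicate block and 0 to 1 without 1 library, and the count lower was 0, and 1 in the fit of 48 libraries. In TCCSUP the count higher was 0, and 1 with no filter, the replicate block or the fit of 48 libraries, and 0 to 1 without 1 library. Such a count comes from genes that the filter left out of the main run, where all neighbours tested were lower. In VMCUB the count higher was 0, and 2 in the fit of 48 libraries and 0 to 1 without 1 library. The count lower there was 1, and 0 with library totals, no filter or the replicate block. It was 2 in the fit of 48 libraries and 0 to 2 without 1 library. The added pair is left out in TCCSUP and VMCUB, since it reached the filter there mainly or only through CPI-0209 libraries. Counts higher that rest on genes too low for the main filter are not read as results. In the shared fit 2 were higher, and 1 with the pair added (which makes 1 gene of 2), 1 without HT1376 or VMCUB, 0 without T24, 639V or TCCSUP, and 1 to 2 without a replicate number.

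Same-numbered libraries did not deviate together (correlations from -0.729 to 0.354), and in 0 of 8 lines did all libraries correlate best with their own number. With the replicate block, calls of SERPINB5, SERPINB7 and SERPINB13 in HT1376 (adjusted p = 0.0792, 0.0905 and 0.0562), SERPINB5 in T24 (0.212) and SERPINB8 in VMCUB (0.0834) passed the threshold no more, and the test between lines kept 5 of 5 neighbours. Library totals moved the median of all genes to 0.22 in SW780, 0.13 in VMCUB and 0.10 in the shared fit. Depth limits SERPINB10, SERPINB11 and SERPINB12, and SERPINB3 and SERPINB4 outside HT1376 and 639V.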
